A study of Mus musculus with 6 samples.

Results

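Core effector and surface markers of plasmacytoid dendritic cells (pDCs) were followed in spleens of mice that were wild-type (WT) or lacked IRF8 (KO, deficient per the labels). The set holds 10 named genes: Cox6a2, Pacsin1, Ly6d, Ly6c2, Atp1b1, Upb1, Pld4, Ptprs, Tex2 and Cyb561a3. It was chosen by name, with earlier results of these data known, from 19937 genes measured on Affymetrix arrays. A gene counted as measured where a probe set listed its symbol and no other. By this rule 9 of the 10 were measured, each by 1 probe set that shared a RefSeq transcript with its gene. Ly6c2 was not, because both of its probe sets also list Ly6c1. Cells positive for B220 and SiglecH were taken from spleens, with 3 samples of each genotype, all of total RNA amplified before labelling. The labels name no allele, Cre driver, strain or age, and do not give the number of animals behind the samples. P-values therefore reflect only how far these samples vary, and that variation may be technical.

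Background helps in reading these genes. pDCs sense viral nucleic acids in endosomes through TLR7 and TLR9 and answer with large amounts of type I interferon. IRF8 is a transcription factor of dendritic cell and monocyte development, and TCF4 is the E protein that maintains the pDC fate. The markers followed here belong to the mature pDC state and have varied work: some sit at the cell surface (Ly6d, Ly6c2, Ptprs, Atp1b1), some act in endosomes and lysosomes (Pld4, Pacsin1, Cyb561a3), and others in metabolism or lipid traffic (Cox6a2, Upb1, Tex2).

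Upstream sequence is shown first for the 3 markers that fell in KO, because they carry the calls below, and for Ptprs, because its window alone among these 4 holds a searched motif. Each line gives the 250 bases before the start of the gene, 5' to 3' on the gene's own strand, from RefSeq on GRCm38.p6. Capitals mark matches to the motifs named in the next paragraph.
Upb1, chr10:75406661-75406910, plus strand: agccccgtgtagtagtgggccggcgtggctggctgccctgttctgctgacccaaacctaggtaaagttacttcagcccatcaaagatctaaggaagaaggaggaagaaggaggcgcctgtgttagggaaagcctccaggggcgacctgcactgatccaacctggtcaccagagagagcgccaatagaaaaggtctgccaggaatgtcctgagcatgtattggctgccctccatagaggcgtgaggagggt
Pld4, chr12:112760405-112760654, plus strand: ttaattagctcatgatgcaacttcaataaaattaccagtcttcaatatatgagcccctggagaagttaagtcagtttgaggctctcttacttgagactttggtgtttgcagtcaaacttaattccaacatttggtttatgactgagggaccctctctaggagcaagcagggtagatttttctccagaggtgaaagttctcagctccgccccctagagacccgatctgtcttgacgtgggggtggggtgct
Pacsin1, chr17:27684989-27685238, plus strand: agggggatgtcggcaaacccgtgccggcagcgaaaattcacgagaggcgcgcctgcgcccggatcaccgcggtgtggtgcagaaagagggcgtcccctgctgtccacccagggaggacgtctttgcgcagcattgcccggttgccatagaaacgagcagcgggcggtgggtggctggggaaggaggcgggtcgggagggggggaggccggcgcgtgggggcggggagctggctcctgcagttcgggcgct
Ptprs, chr17:56476481-56476730, minus strand: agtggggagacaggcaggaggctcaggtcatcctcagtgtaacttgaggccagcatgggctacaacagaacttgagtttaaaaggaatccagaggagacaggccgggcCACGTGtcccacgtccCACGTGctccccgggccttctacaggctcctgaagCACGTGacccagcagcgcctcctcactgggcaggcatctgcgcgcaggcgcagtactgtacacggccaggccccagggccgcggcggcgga

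Of the 10 markers, 8 have upstream windows in the RefSeq table, 11 windows in all. Both strands were searched for 3 forms of the sites that IRF factors bind alone or with PU.1 (GGAANNGAAA, GAAANNGGAA and GAAANNGAAA), a PU.1 core (GAGGAAGT), the E protein E-boxes CAGGTG and CAGCTG, and the MYC E-box CACGTG. The IRF forms share letters and can overlap. Among all 32851 windows of this length, the 3 IRF forms occurred in 2.3%, 2.3% and 2.98%, and none of the 11 marker windows held any of them. That says only that these letters are not in these windows. CACGTG occurred in 6.02% of all windows and in the Ptprs window printed above, at bases -142 to -137, -126 to -121 and -91 to -86 before the start. The other Ptprs window held none of the motifs. CAGGTG, found in 17.2% of all windows, matched in 1 of the Cyb561a3 windows, and CAGCTG (13%) and the PU.1 core (2.44%) matched in both overlapping windows of Ly6c2. These matches describe the sequence and are not evidence of binding.

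The labels and the gate were checked before the markers were compared. Irf8 measured 10.21, 9.97 and 10.24 in WT replicates 1 to 3 and 10.15, 10.49 and 10.79 in KO replicates 1 to 3, so the KO samples were not lower. The altered part of Irf8 is not given in the labels, and signal from another part of the transcript would say nothing about it. Directions given below therefore follow the genotype labels alone. Of the 10 genes taken to define pDCs, 9 were measured. All 9 had a log2 level of at least 8.61 in every array, above the median of all levels, 5.67. They were not level between genotypes: 7 differences were negative and 2 positive, with a median of -0.48. By limma 2 fell and 0 rose, where 2.08% of all genes fell and 2.3% rose. Every KO value lay below the WT range for 6 of them (11.7% of all genes) and above it for 1 (8.71%). Their summed linear level was 22336 to 25178 in WT arrays and 18667 to 18776 in KO arrays. Of the gated proteins' genes, Siglech differed by -0.35 (limma adjusted p = 0.169) and Ptprc, which encodes CD45 and its B220 form, by 0.14 (0.765). Every KO array was below every WT array for Siglech, while the groups overlapped for Ptprc. Array medians lay between 5.53 and 5.56, and the first principal component, with 52.8% of the variance, separated the genotypes.

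The mature pDC markers did not move together in KO. Upb1, Pld4 and Pacsin1 fell, by 1.65, 0.85 and 0.78 log2 units. The other 6 measured markers passed the threshold in neither direction, with Atp1b1 and Ly6d measuring higher in every KO array than in any WT array, Ptprs lower, and Cox6a2, Tex2 and Cyb561a3 with overlapping groups. By limma at an adjusted p of 0.05, 3 of 9 markers passed in either direction, where 4.38% of all genes did. Lower were 3 of 9, against 2.08% of all genes, and higher were 0 of 9, against 2.3%. All 9 markers were among the bright genes, those with a mean level above that of the median gene. The fit on bright genes alone called 392 lower and 475 higher, so the share called among them is larger than among all genes. With an unadjusted p under 0.05 there were 6 of the 9 markers, and 3203 of all 19937 genes. For 6 of 9 markers every KO value was outside the WT range (20.4% of all genes), being below it for 4 (11.7%) and above it for 2 (8.71%). The markers' median difference was -0.25, against -0.04 for all genes. In bulk samples such as these, fewer cells of a type and less RNA per cell cannot be told apart. Exact permutation of the 6 arrays cannot give a p below 0.10.

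**Figure D1:**
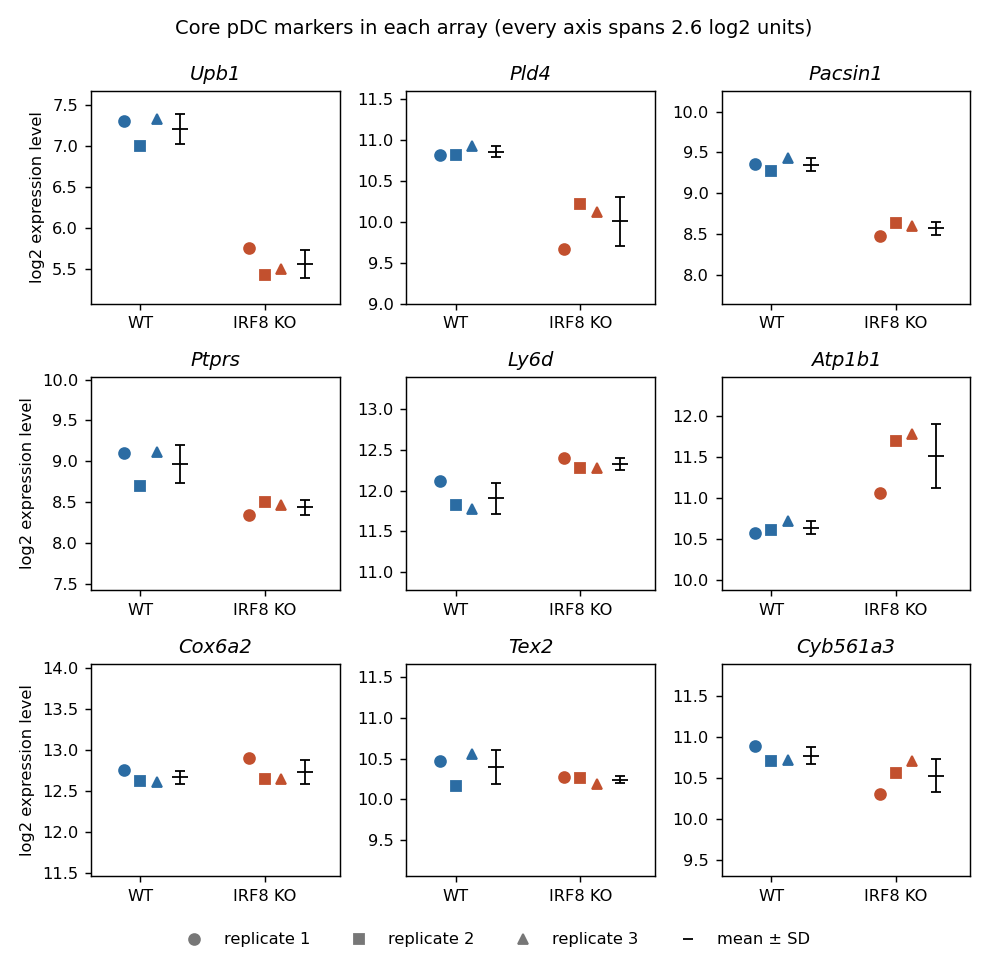
Log2 expression level of each measured core pDC marker in every array, WT in blue and IRF8 KO in orange, with replicates 1 to 3 as circle, square and triangle and the mean ± SD (n = 3) beside them. Upb1, Pld4, Pacsin1 and Ptprs have all KO points below all WT points, Ly6d and Atp1b1 have them above, and the groups overlap for Cox6a2, Tex2 and Cyb561a3.

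Among the surface markers, Ly6d measured higher in KO without passing the test. It encodes a small GPI-anchored protein that marks lymphoid progenitors able to make B cells and pDCs. Its log2 level was 12.12, 11.82 and 11.77 in WT replicates 1 to 3 and 12.40, 12.28 and 12.28 in KO. All 3 KO arrays lay above all WT arrays, by a narrow margin over WT replicate 1. The difference was 0.42 (95% interval 0.12 to 0.71), or 134% of the WT level, with a limma adjusted p of 0.142 and an exact permutation p of 0.10. Leaving out single arrays moved the adjusted p between 0.0827 and 0.336 and never brought it under the threshold.

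Markers of B cells, which can also carry Ly6d and B220, moved beside it in part. Of 11 measured B cell genes, 5 rose and 0 fell by limma, and their summed linear level was 657 to 706 in WT arrays and 1347 to 1455 in KO arrays. Those that rose were Bank1, Blk, Cd79a, Cd22 and Fcer2a, the last pair named after their values were seen. The count that rose was 3 without WT replicate 3 or KO replicate 3. Bank1 and Blk, both of B cell receptor signalling, rose by 2.47 and 2.42, and Cd79a, a chain of the receptor itself, by 1.65. The defining marker Ms4a1 (CD20) stayed at a low signal, with 3.56 in WT and 3.40 in KO, and Cd79b measured 8.26 and 8.17. Pax5 measured 5.22 and 5.54 (adjusted p = 0.186). Their part in the Ly6d value was not tested.

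The wider LY6 family gave no common shift. Of 21 further measured members and relatives, 1 rose and 0 fell, and their median difference was -0.06. Ly6e, a broadly expressed interferon-inducible member, had a WT level of 12.54 ± 0.03 and a KO level of 12.48 ± 0.02 (SD, n = 3 each). Ly6i rose by 1.31 (limma adjusted p = 0.0459), from a WT level of 5.57 ± 0.42 to a KO level of 6.88 ± 0.47 (SD, n = 3 each). That call was lost with quantile normalization (0.0627), with array medians set equal (0.0666) and without any single array other than KO replicate 1 (highest adjusted p 0.17). Lynx1, a gene next to Ly6d in the RefSeq order, differed by 0.31 (adjusted p = 0.293). LY6 genes are close relatives, and a probe set may pick up signal from more than its listed gene.

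Ptprs, a receptor tyrosine phosphatase that binds proteoglycans and restrains pDC activation, measured lower in KO. Log2 levels were 9.10, 8.70 and 9.12 in WT replicates 1 to 3 and 8.34, 8.51 and 8.47 in KO. The groups did not overlap, and WT replicate 2 came nearest to the KO arrays. The difference was -0.53 (95% interval -0.86 to -0.20, 69.2% of the WT level), and limma's adjusted p was 0.0979. It passed with quantile normalization (-0.61, 0.0465) and without WT replicate 2 (-0.67, 0.0456).

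Its paralog Ptprf, which encodes the founding phosphatase of the same LAR family, fell in KO. Ptprf measured 7.92, 7.74 and 8.34 in WT and 6.30, 6.44 and 6.41 in KO, a difference of -1.62 (95% interval -2.00 to -1.23, limma adjusted p = 0.00211). The call held in every fit without a single array (highest adjusted p 0.0143). The third member of the family, Ptprd, was at a low signal of 4.14 and 3.92. Of 10 measured partners and relatives of Ptprs, 2 fell and 0 rose. The second was Ppfia4, a liprin scaffold that binds LAR phosphatases, which fell by 0.51 (limma, 0.0345 after adjustment). That call ended when any single array except KO replicate 1 was removed (highest adjusted p 0.148) and when both arrays numbered 1 were. Whether the differences of Ptprf and Ptprs are of unequal size was not tested.

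Atp1b1 stood at the edge of the threshold, on the high side. It encodes the beta subunit that carries the sodium and potassium pump to the plasma membrane. The arrays gave log2 levels of 10.57, 10.61 and 10.72 in WT replicates 1 to 3 and 11.06, 11.70 and 11.78 in KO. All 3 KO arrays were higher than any WT array, and KO replicate 1 lay nearest to WT. The difference was 0.88 (SE 0.19, 95% interval 0.43 to 1.33), a 1.83-fold higher level, with a limma adjusted p of 0.05002, just above the threshold. Without KO replicate 1 the difference was 1.10 (adjusted p = 0.00252). Without any other single array the adjusted p ran from 0.123 to 0.188. It was also under the threshold with array weights (1.01, adjusted p = 0.00861). With bright genes only, the mean of probe sets or RefSeq-matched probe sets its adjusted p was 0.0358, 0.0496 and 0.0491. In these 3 settings its own values and difference were unchanged, because it has 1 probe set. Only the other genes in the fit differed. A block for the replicate number (0.0203) and removal of both arrays numbered 1 (0.0059) brought Atp1b1 under as well.

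Among the 11 other measured pump subunits and regulators, 1 rose and 0 fell. Fxyd5, a membrane protein that associates with the pump and alters its activity, rose by 0.68 (limma adjusted p = 0.0123), with a WT level of 11.91 ± 0.10 and a KO level of 12.59 ± 0.05 (SD, n = 3 each). Leaving out replicate 2 or 3 of either genotype ended this call (highest adjusted p 0.0651). Atp1b3, the other beta subunit with a clear signal, had levels of 9.55 and 9.78 (adjusted p = 0.425). Atp1b2 and Atp1b4 were below the median of all levels in both groups.

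Pld4 led the endolysosomal markers and fell in KO. It encodes an exonuclease that degrades single-stranded DNA in endolysosomes and so limits the ligand supply of TLR9. WT replicates 1 to 3 had log2 levels of 10.82, 10.81 and 10.93, and KO replicates 1 to 3 had 9.67, 10.22 and 10.12. The WT arrays lay close together, every KO array was lower, and KO replicate 1 was lowest. Pld4 fell to 55.5% of its WT level (95% interval 42.9% to 71.7%, limma adjusted p = 0.0262). Leaving out any WT array or KO replicate 3 ended the call (highest adjusted p 0.101), as did setting array medians equal (0.0544).

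The other phospholipase D genes did not pass. Of 6 measured, 0 rose and 0 fell by limma, with a median difference of -0.12. The largest differences were -0.37 for Pld1 (adjusted p = 0.461) and -0.36 for Pld3 (adjusted p = 0.586), the latter a second endolysosomal exonuclease. Pld3 measured 6.79, 7.54 and 7.80 in WT and 6.82, 7.20 and 7.04 in KO, so its groups overlapped. The DNA sensor itself, Tlr9, differed by -0.48 (adjusted p = 0.12), and the RNA sensor Tlr7 fell by 0.60 (adjusted p = 0.0484), a call that ended without any single array other than KO replicate 1.

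Pacsin1 fell as well. It encodes an F-BAR adaptor that bends membranes during endocytosis and takes part in interferon production by pDCs after TLR9 stimulation. Its log2 level was 9.36, 9.27 and 9.43 in WT replicates 1 to 3 and 8.48, 8.64 and 8.60 in KO. No array of either group came near the other group. Pacsin1 fell to 58.3% of its WT level (95% interval 49.1% to 69.2%, limma adjusted p = 0.00746), and the call held without any single array (highest adjusted p 0.0379).

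No relative or partner of Pacsin1 passed the test on the low side. Of 13 other PACSIN, dynamin, EHD and actin-regulating genes, 1 rose and 0 fell. Pacsin2, the broadly expressed paralog, measured 6.94 in both groups, with a 95% interval of the difference from -0.28 to 0.28. Pacsin3 measured 5.44 and 5.28 (adjusted p = 0.599). Ehd1, an ATPase of endosomal recycling, rose by 0.71 (adjusted p = 0.0468), a call lost with quantile normalization, with array medians set equal, with a variance trend and without any single array other than KO replicate 1 (highest adjusted p 0.143).

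Cyb561a3, a lysosomal cytochrome b561 that reduces ferric iron, overlapped between genotypes. Log2 levels were 10.89, 10.71 and 10.72 in WT replicates 1 to 3 and 10.31, 10.56 and 10.71 in KO. KO replicate 3 lay at the level of the lower WT arrays and KO replicate 1 well below them. The KO level was 84.4% of WT, with a 95% interval from 67.9% to 105% (limma adjusted p = 0.455), so a fall of moderate size cannot be told from none. Of 7 measured relatives 0 passed in either direction, the largest difference being -0.40 for Cyb561d2 (adjusted p = 0.305).

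Upb1 had the largest fall of the measured markers. It encodes beta-ureidopropionase, which catalyses the final step of pyrimidine breakdown. Its log2 level was 7.31, 7.00 and 7.33 in WT replicates 1 to 3 and 5.76, 5.43 and 5.50 in KO. The KO arrays lay near the median of all levels, so the signal left there was low and the fold may be understated. Upb1 fell 3.14-fold, a log2 difference of -1.65 (SE 0.14, 95% interval -1.98 to -1.32, limma adjusted p = 0.0011). A larger absolute difference was seen in 1.08% of all genes. The call held without any single array (highest adjusted p 0.00929).

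The enzymes before Upb1 in the pathway, Dpyd and Dpys, were below the median of all levels in both genotypes. They measured 3.84 and 4.96 in WT and 3.46 and 4.86 in KO. Dpyd differed by -0.39 (adjusted p = 0.158) with no overlap between groups. Of the 7 other measured genes, 0 rose and 0 fell by limma, and their median difference was -0.01.

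Cox6a2 had a high level in both genotypes, and its difference did not pass the test. It encodes the heart and muscle form of a cytochrome c oxidase subunit, which pDCs share with striated muscle. Its signal stood at log2 levels of 12.76, 12.62 and 12.61 in WT replicates 1 to 3 and 12.90, 12.65 and 12.64 in KO. The 2 groups overlapped, and the array numbered 1 was highest in each. The difference was 0.07 (limma adjusted p = 0.862), and its 95% interval put the KO level between 86.5% and 127% of WT. With quantile normalization the difference was -0.026 and without KO replicate 1 it was -0.017. The form used by most tissues, Cox6a1, had a WT level of 12.44 ± 0.08 and a KO level of 12.30 ± 0.23 (SD, n = 3 each; limma adjusted p = 0.718). Of 16 other measured oxidase subunits 0 passed in either direction. The largest difference among them was -0.55 for Cox7a2 (limma adjusted p = 0.476), which passed without KO replicate 1 (-0.90, 0.0439). The muscle forms Cox7a1 and Cox8b measured 5.81 and 4.84 in WT and 5.45 and 4.99 in KO.

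Tex2, an endoplasmic reticulum protein with a lipid transfer domain, also overlapped between genotypes. The arrays gave log2 levels of 10.47, 10.16 and 10.56 in WT replicates 1 to 3 and 10.27, 10.26 and 10.19 in KO. All KO values lay within the WT range. The KO level was 89.7% of WT (95% interval 72.7% to 111%, limma adjusted p = 0.656). Of 8 other lipid transfer and tethering genes of the endoplasmic reticulum, 0 passed; Esyt1 differed by 0.62 (adjusted p = 0.354) and Vapa by 0.39 (adjusted p = 0.549), and without KO replicate 1 both passed, with 0.94 (0.024) and 0.72 (0.0176).

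KO replicate 1 stood apart from the other KO arrays for several markers. Its shift from the WT mean was -1.19 for Pld4, against -0.63 and -0.73 in KO replicates 2 and 3. For Atp1b1 the shifts were 0.43, 1.06 and 1.14, for Cyb561a3 -0.46, -0.21 and -0.06, and for Cox6a2 0.24, -0.01 and -0.02. Upb1, Pacsin1, Ptprs and Ly6d kept their sign and much of their size in all 3 arrays. Neutrophil granule genes moved most in KO replicate 1: over 12 measured genes the median shift was 3.05 there and 0.32 and 0.06 in KO replicates 2 and 3. All 12 had positive differences, and none passed limma's threshold. Without KO replicate 1, 1 of them rose. With both arrays numbered 1 left out, or with a block for the replicate number, 2 rose. The list's summed linear level was 332 to 1576 in WT arrays and 17744, 1770 and 672 in KO replicates 1 to 3. S100a8 stood at 12.70, 8.99 and 7.48 in KO replicates 1 to 3 and at 9.34, 4.87 and 4.44 in WT replicates 1 to 3. The list's median shift was 0.26, -0.01 and -0.22 in WT replicates 1 to 3, so the array numbered 1 was highest in each genotype. Cell cycle genes shifted by 1.58, 0.37 and 0.33 in KO replicates 1 to 3, with positive differences for all 19, and 1 of the 19 rose. Without KO replicate 1, 5 of the 19 rose, and without any single WT array or KO replicate 3 there were 0. Without KO replicate 1, Pld4 fell by 0.68 (adjusted p = 0.0173), Upb1 fell by 1.75 and Pacsin1 fell by 0.73, and Cyb561a3 differed by -0.14 (adjusted p = 0.641).

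**Figure D2:**
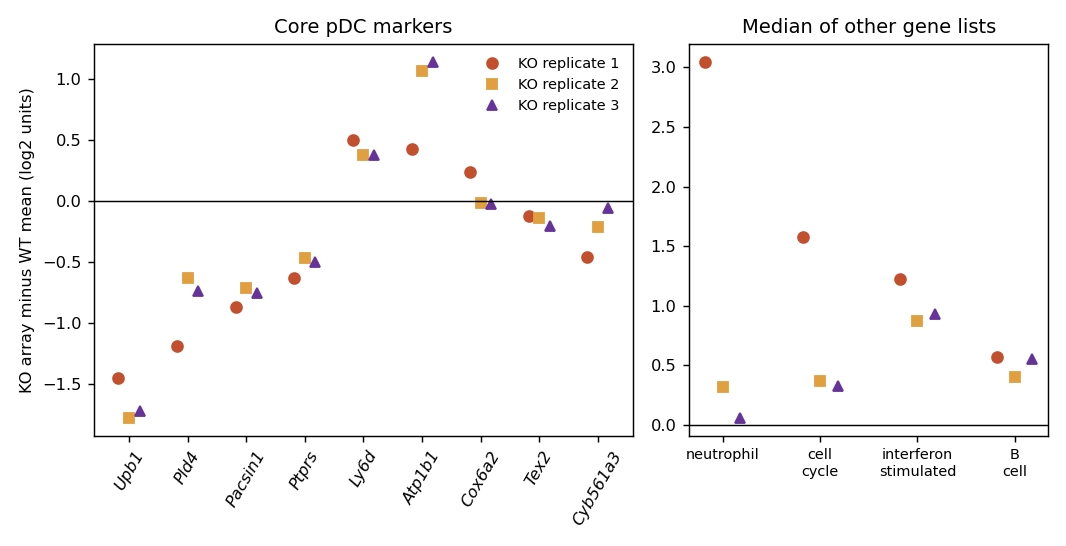
Shift of each KO array from the WT mean in log2 units, on the left for the 9 measured core pDC markers and on the right as the median over neutrophil, cell cycle, interferon-stimulated and B cell genes, with circle, square and triangle for KO replicates 1 to 3 and separate vertical scales. KO replicate 1 lies apart for Pld4, Atp1b1, Cyb561a3 and Cox6a2, and in the neutrophil and cell cycle lists, whose medians are 3.05 and 1.58 there.

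Genes listed as markers of other cells that the gate could hold moved in several directions, and interferon-stimulated and handling stress genes were read beside them. By limma, 2 of 8 plasma cell genes rose. Of 11 T cell genes 2 rose and 2 fell, of 13 conventional dendritic cell genes 1 rose and 4 fell, and of 10 macrophage genes 1 fell. The macrophage genes had 10 negative differences of 10, with a median of -0.90, and a summed linear level of 402 to 1357 in WT arrays and 315 to 370 in KO arrays. Their count of falls was 5 without WT replicate 1 and 0 with quantile normalization or without WT replicate 2, WT replicate 3, KO replicate 2 or KO replicate 3. Among 8 natural killer, 7 monocyte and 4 erythroid genes 0 passed in either direction. Of the T cell and natural killer genes, Cd4, Cd8a, Cd8b1 and Klrd1 had high WT means of 10.05, 9.66, 10.29 and 11.68, and Nkg7 a low one of 5.49. Which cells carried these signals was not tested. Of 20 interferon-stimulated genes 10 rose and 0 fell, and of 14 genes of handling stress 1 rose. The part of these shifts in the marker values was not tested.

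Other genes of the pDC programme were counted beside the markers. Of 50 further pDC genes 45 were measured. These include the 9 measured genes taken to define pDCs above, so the falls of Ccr9 and Tlr7 are counted in both lists. By limma 13 fell, 1 rose and 31 passed in neither direction, against 2.08% of all genes lower and 2.3% higher, and their median difference was -0.28. The list was chosen with earlier results of these data known. Of the 45, 42 were bright genes, among which the share called is larger than among all genes. The largest falls were those of Cd209d, a lectin, by 5.06, Havcr1, a phosphatidylserine receptor, by 4.62, and Cd300c, an immunoreceptor whose probe set shares no RefSeq transcript with it, by 2.27. The other 10 that fell are named after their values were seen. Pltp, a phospholipid transfer protein, fell by 2.00, Nrp1, a receptor of semaphorins and growth factors, by 1.74, Lair1, an inhibitory collagen receptor, by 1.68, and Smim5 by 1.34. Maged1 fell by 1.23, Rnase6, an antimicrobial ribonuclease, by 1.00, Ccr9, a gut-homing chemokine receptor, by 0.97, Mctp2 by 0.89, Nucb2 by 0.63 and Tlr7 by 0.60. The calls of Cd300c, Ccr9, Mctp2, Nucb2 and Tlr7 were each lost in 2 to 5 of the 6 fits without a single array (highest adjusted p 0.165), those of Mctp2 and Nucb2 also with array medians set equal, and that of Tlr7 also with robust estimation and a variance trend.

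None of the 4 transcription factors named here passed the test. Tcf4 measured 11.49, 11.44 and 11.58 in WT and 11.38, 11.57 and 11.41 in KO, a difference of -0.05 (limma adjusted p = 0.88). Spib, an ETS factor of pDCs, differed by -0.74 (adjusted p = 0.0949), Bcl11a by 0.19 (0.576) and Irf7 by 0.32 (0.669). Every KO value lay below the WT range for Spib and above it for Bcl11a. Spib passed without KO replicate 3 (adjusted p = 0.0463) and with a block for the replicate number. Irf7 passed without KO replicate 1 (0.66, adjusted p = 0.0353). The single rise counted among the further pDC genes was that of Dntt, by 1.18 (adjusted p = 0.00816), named after its value was seen. Dntt encodes the template-independent DNA polymerase of early lymphoid cells. Without KO replicate 1, 15 further pDC genes were lower and 3 higher, and without WT replicate 2 or WT replicate 3 there were 8 lower and 1 higher.

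**Figure D3:**
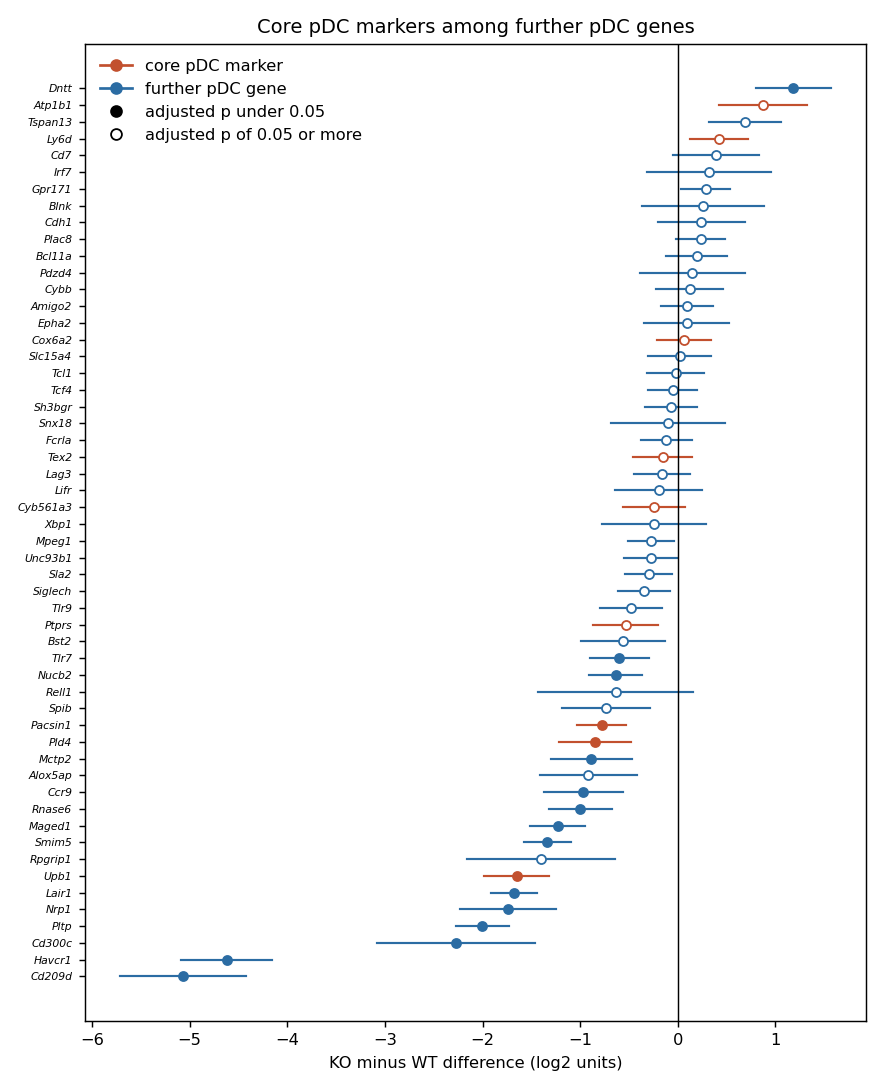
KO minus WT difference in log2 units with its 95% interval for the 9 measured core pDC markers (orange) and 45 further pDC genes (blue), with filled points where limma's adjusted p is under 0.05. Upb1, Pld4 and Pacsin1 are filled on the low side, Dntt is the single filled point on the high side, and Cox6a2, Tex2 and Cyb561a3 have intervals that cross 0.

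The genes whose 6 values ran most like those of the markers that fell were read from all genes with a RefSeq-matched probe set. For Upb1 they were Ccdc88a, an actin-binding regulator of G proteins, and 4931406C07Rik (Pearson r of 0.998 and 0.997 over 6 arrays). Ccdc88a fell by 1.78 and 4931406C07Rik by 1.57. For Pacsin1 they were Slc18a2, a vesicular monoamine transporter, and Pkib, an inhibitor of protein kinase A (r of 0.998 for both), and for Pld4 they were Myh10, a non-muscle myosin, and Ly86, the partner of an LPS receptor relative (r of 0.994 and 0.993). An r above 0.95 was reached by 300 genes for Upb1, 235 for Pacsin1 and 111 for Pld4. All these points share the genotype contrast, so the likeness is a description.

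Neighbouring genes on the chromosome were read beside the markers. Among 35 measured protein-coding genes within the nearest pair on either side of a marker in the RefSeq order, 2 rose and 0 fell by limma, both named after their values were seen. Itgax, the integrin CD11c, lies near Cox6a2 and rose by 1.78 (adjusted p = 0.00128), beside the difference of 0.07 for Cox6a2. Xcl1, a chemokine gene near Atp1b1, rose by 4.67. No neighbour of Upb1, Pld4 or Pacsin1 passed the threshold.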

How the data were processed

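The authors deposited log2 expression levels of 34760 probe sets in 6 samples, and these were used as given. The scale was read from the values. Per the labels' protocols, amplification used NuGen PICO SL and the label was biotin. The sources used here do not give background correction, summarisation or normalization. Near-equal array medians mean that a change of all transcripts one way cannot be seen.

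The platform annotation lists 1 gene symbol for 21640 probe sets, several for 1321 and none for 11799. The brightest probe set by its mean over 6 arrays stood for a gene (19937 genes), and 21553 probe sets matched RefSeq by Entrez identifier. Genotypes were compared with limma 3.58.1 (R 4.3.3; lmFit and eBayes, no covariates, two-sided), adjusted by Benjamini-Hochberg over all genes at 0.05, with no filter on dim probe sets. A percent of WT level is 2 to the power of the log2 difference. The gene test was tried on simulated data with 200 changed genes in each run and noise drawn independently for each gene and array. It found 7.2% of changes of log2 size 0.5, 68.4% of size 1 and 92.8% of size 2, and 5.26% of its calls were false. A marker that did not pass is therefore not shown to be unchanged. In the data 874 genes were called, and KO replicate 1 shifted some gene lists together, so these percents may not carry over. The number of arrays limits the precision.

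Members and gene lists were chosen with earlier results of these data known. Named were all members, up to 3 genes of each list past the threshold with the largest differences (2 at most, as values, in lists where none passed), the checks Irf8, Siglech and Ptprc, and the 2 nearest patterns of each marker past the threshold; family members and pDC factors named besides these were chosen after their values were seen. Alternatives were quantile normalization, equal array medians, bright genes only, the mean of probe sets, RefSeq-matched probe sets, array weights (statmod 1.5.0), robust estimation with a variance trend, an unequal-variance test, a block for the replicate number, leaving out each array and leaving out both arrays numbered 1. Figures used matplotlib 3.10.9.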

Additional observations from a re-analysis of the deposited data

Results flagged for a closer look

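A signal was present in probe sets outside the gene tests. Of the 2 probe sets that list both Ly6c1 and Ly6c2, and so can be assigned to neither, the first measured 10.01, 10.16 and 9.98 in WT replicates 1 to 3 and 10.22, 11.06 and 10.76 in KO, with a KO mean of 10.68 above every WT array. KO replicate 1 was close to WT and the other KO arrays were higher. The second measured 12.14, 11.91 and 11.89 in WT and 11.93, 12.14 and 12.19 in KO, and its groups overlapped. The differences, 0.63 and 0.11 log2 units, were not tested.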

How the results depend on the processing

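Among the 9 measured markers, Upb1 and Pacsin1 kept their direction and call in every alternative except the unequal-variance test (adjusted p = 0.139 and 0.124), and Pld4 lost its call in 6 of 16. Cox6a2 changed sign with quantile normalization (-0.0264) and without KO replicate 1, and ran from -0.0171 to 0.1157 over the fits without single arrays. Markers lower in KO, 3 as reported, numbered 4 with quantile normalization, which added Ptprs, and 2 with array medians set equal, which lost Pld4. They numbered 0 with the unequal-variance test and 2 to 3 without single arrays. The 3 without WT replicate 2 were Upb1, Pacsin1 and Ptprs. Markers higher in KO, 0 as reported, numbered 1, always Atp1b1, with bright genes only, the mean of probe sets, RefSeq-matched probe sets, array weights, the replicate block and removal of both arrays numbered 1, and 0 to 1 without single arrays. With bright genes only, the mean of probe sets and RefSeq-matched probe sets, the values of Atp1b1 itself were unchanged and only the other genes differed. Further pDC genes, 1 higher and 13 lower as reported, gave 2 higher with bright genes only, array weights, the replicate block and removal of both arrays numbered 1, 0 higher and 1 lower with the unequal-variance test, and 1 to 3 higher and 8 to 15 lower without single arrays. Over all genes, 459 higher and 415 lower became 716 and 647 with array weights, 707 and 655 with the replicate block, 741 and 641 after removal of both arrays numbered 1, 2 and 2 with the unequal-variance test, and 249 to 780 and 202 to 719 without single arrays. Same-numbered WT and KO arrays had deviations correlated at 0.379, 0.0968 and 0.252 over genes. The second value was under the limit of 0.1 set for pairing, so the numbers were not taken as pairs. Even so, every WT array correlated most with the KO array of its own number. KO replicates 1 and 3 also correlated most with their own number, and KO replicate 2 with WT replicate 3 (0.2). Whether the arrays were paired cannot be told from these values. The cause of the moves between settings was not tested.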
